A study of Homo sapiens with 4 samples.

Results

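The BCL2 family sets the threshold at which the outer mitochondrial membrane is opened during apoptosis, and 10 of its genes were followed in HCC1954 cells depleted of the palmitoyltransferase ZDHHC15. The genes were taken by name from the deposited table of 58735 genes. They comprised the anti-apoptotic genes BCL2, BCL2L1 (BCL-XL), MCL1 and BCL2A1, the pore-forming effectors BAX and BAK1, and the BH3-only genes BCL2L11 (BIM), BBC3 (PUMA), PMAIP1 (NOXA) and BIK. All 10 passed the filter on low counts and were among the 15817 genes tested, BCL2A1 only through its shZDHHC15 samples. HCC1954 is a widely used line from a human breast carcinoma with amplified ERBB2. Cells carrying a scrambled hairpin (shCON, 2 samples) were compared with cells carrying a GIPZ hairpin directed at ZDHHC15 (shZDHHC15, 2 samples), and no other allele or agent is named for either group. The labels describe harvest 36 h after a transient transfection. The methods of the study give that step too, and also speak of stable knockdown lines and of screened monoclonal cultures, without saying which of these was sequenced. The labels do not say whether the numbered samples are separate cultures, clones or hairpins, so p-values measure only the spread between these samples.

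Anti-apoptotic members hold BAX and BAK1 in check by binding a short helix, the BH3 domain. BH3-only members are induced or released under stress, fill that groove or engage the effectors directly, and so allow BAX and BAK1 to form pores through which cytochrome c leaves the mitochondrion. Members differ in their partners: NOXA binds mainly MCL1, whereas BIM and PUMA bind every anti-apoptotic member. MCL1 is a short-lived protein that many breast cancer cells depend on, together with BCL-XL. The values below are transcript counts and carry no information on protein level, cleavage or binding.

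The counts on genes summed to between 17560982 and 19118704 per sample, and a count of 0 allowed up to 3 counts (0.153 to 0.178 CPM, the depth-normalised count), a limit of counting error only. ZDHHC15 itself received 17617 and 15716 counts in shCON cells and 0 counts in each shZDHHC15 sample, at least 6045-fold lower against a floor of 3 counts per library. All 6 epithelial markers were detected in each sample, with ERBB2 at 92598 to 101910 counts. Their summed level was 13583 and 14589 CPM in shCON cells and 7981 and 7954 CPM in shZDHHC15 cells. KRT8, which made up most of the difference, went from 6049 to 1966 CPM, and KRT18, EPCAM and ERBB2 fell as well, whereas KRT19 rose (log2 fold change 0.44, adjusted p = 0.0115) and CDH1 did not pass (-0.05, adjusted p = 0.707). Of 17 markers of leukocytes, fibroblasts and endothelium, 7 had at most 3 counts in every sample, with CD3E and LUM among those at 0 throughout. The other 10 included CD14, COL1A1, PECAM1 and CDH5, the 4 that were tested. All 4 were called higher in shZDHHC15 cells, as were 21.7% of all tested genes. CD14 passed the filter on low counts only through its shZDHHC15 samples. The summed leukocyte level was 0.947 to 1.26 CPM in shCON and 1.93 to 2.36 CPM in shZDHHC15 cells, that of fibroblast markers 5.81 to 7.16 and 8.55 to 11.5 CPM, and that of endothelial markers 48.3 to 49.9 and 96.6 to 101 CPM. The part of these shifts in the values of the BCL2 family was not tested. In bulk RNA, a change in the number of cells that express a gene and a change in RNA per cell cannot be told apart.

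RefSeq promoter windows on GRCh38.p14, running from 250 bases before to 50 bases after a start site, were matched for 8 of the 10 genes in 9 windows. BCL2L1 had a pair of windows, and MCL1 and BIK had none. A window is shown for BCL2L1, the abundant member with the largest fall, and for each of the 3 members in which a searched motif was found. Of the BCL2L1 pair, only the upstream window is printed. The windows lie at chr20:31723914-31724213 on the minus strand (BCL2L1), chr2:111120664-111120963 on the plus strand (BCL2L11), chr15:79971147-79971446 on the minus strand (BCL2A1) and chr19:47232618-47232917 on the minus strand (BBC3). Each reads 5′ to 3′ along the gene, and capitals mark the motif matches described after them.
BCL2L1: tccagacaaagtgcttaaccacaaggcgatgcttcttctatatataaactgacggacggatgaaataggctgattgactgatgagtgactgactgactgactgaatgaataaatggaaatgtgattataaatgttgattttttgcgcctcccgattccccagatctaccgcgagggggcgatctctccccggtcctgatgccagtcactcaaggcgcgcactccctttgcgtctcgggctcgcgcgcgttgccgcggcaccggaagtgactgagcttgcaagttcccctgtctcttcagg
BCL2L11: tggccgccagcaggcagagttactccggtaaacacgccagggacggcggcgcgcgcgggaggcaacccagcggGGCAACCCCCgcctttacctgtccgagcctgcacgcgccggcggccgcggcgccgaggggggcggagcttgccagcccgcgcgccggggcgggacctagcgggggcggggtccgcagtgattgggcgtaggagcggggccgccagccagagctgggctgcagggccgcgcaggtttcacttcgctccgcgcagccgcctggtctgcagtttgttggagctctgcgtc
BCL2A1: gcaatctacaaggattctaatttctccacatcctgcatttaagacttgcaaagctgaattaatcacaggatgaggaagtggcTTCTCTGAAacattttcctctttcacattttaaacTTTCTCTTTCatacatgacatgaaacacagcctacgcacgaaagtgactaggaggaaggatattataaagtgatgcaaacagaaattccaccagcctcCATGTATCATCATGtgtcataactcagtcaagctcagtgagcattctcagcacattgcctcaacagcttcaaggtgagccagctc
BBC3: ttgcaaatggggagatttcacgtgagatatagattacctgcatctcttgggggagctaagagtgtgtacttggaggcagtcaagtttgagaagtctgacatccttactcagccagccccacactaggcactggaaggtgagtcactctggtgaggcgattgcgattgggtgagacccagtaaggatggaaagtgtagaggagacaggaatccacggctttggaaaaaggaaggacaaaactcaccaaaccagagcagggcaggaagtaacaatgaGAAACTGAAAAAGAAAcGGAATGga

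Motifs of 5 kinds were searched on both strands in all 35116 windows of the table. The interferon-stimulated response element, taken as GAAA and GAAA parted by 2 bases, was held by the windows of BCL2A1 and BBC3 and by 3.57% of all windows. In BCL2A1 it began 133 bases before the start site. In BBC3 it occurred at 26 and at 32 bases after the start site, in overlapping copies. The STAT motif TTCNNNGAA was held by BCL2A1, 168 bases before its start, and by 7.66% of all windows. A core of the p53 element, a pair of CATG with 6 bases between, was held by BCL2A1 alone among the members and by 0.373% of all windows. The TEAD motif CATTCC, through which YAP acts, was found in BBC3 and in 14.0% of all windows, and a κB-like motif (GGG, any 2 bases, TT, any base, CC) in BCL2L11 and in 5.68%. Neither window of BCL2L1, nor those of BCL2, BAX, BAK1 and PMAIP1, held any of these letters. The windows also differed in base composition. That of BCL2A1 was 41.0% G or C with 2 CpG dinucleotides, below the median of 58.7% over all windows, whereas those of BCL2L11 and PMAIP1 were 74.7% and 71.3% G or C with 39 and 42 CpG.

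Among the 10 genes, 7 differed between the groups at an adjusted p under 0.05 (edgeR's quasi-likelihood test, adjusted over all 15817 genes). MCL1, BCL2A1 and BCL2L11 were higher in shZDHHC15 cells, and BCL2L1, BAX, PMAIP1 and BIK were lower. BCL2A1 was tested only because its shZDHHC15 samples passed the filter, so the direction of its call was partly set by that filter. BCL2, BAK1 and BBC3 did not pass the test. Of all tested genes, 21.7% were called higher and 20.3% lower, 42.0% in either direction. The same 7 members were those whose groups did not overlap in CPM, a pattern that 72.5% of all tested genes showed (37.2% higher and 35.3% lower). Anti-apoptotic and BH3-only members changed in both directions, whereas of the effectors only BAX passed the test. The median log2 fold change of the 10 was -0.11, against 0.02 for all tested genes. Without shZDHHC15 replicate 1, 3 members passed, 1 higher and 2 lower (BCL2L11, BCL2L1 and BAX), and the share of all genes called was then 28.5%.

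**Figure D1:**
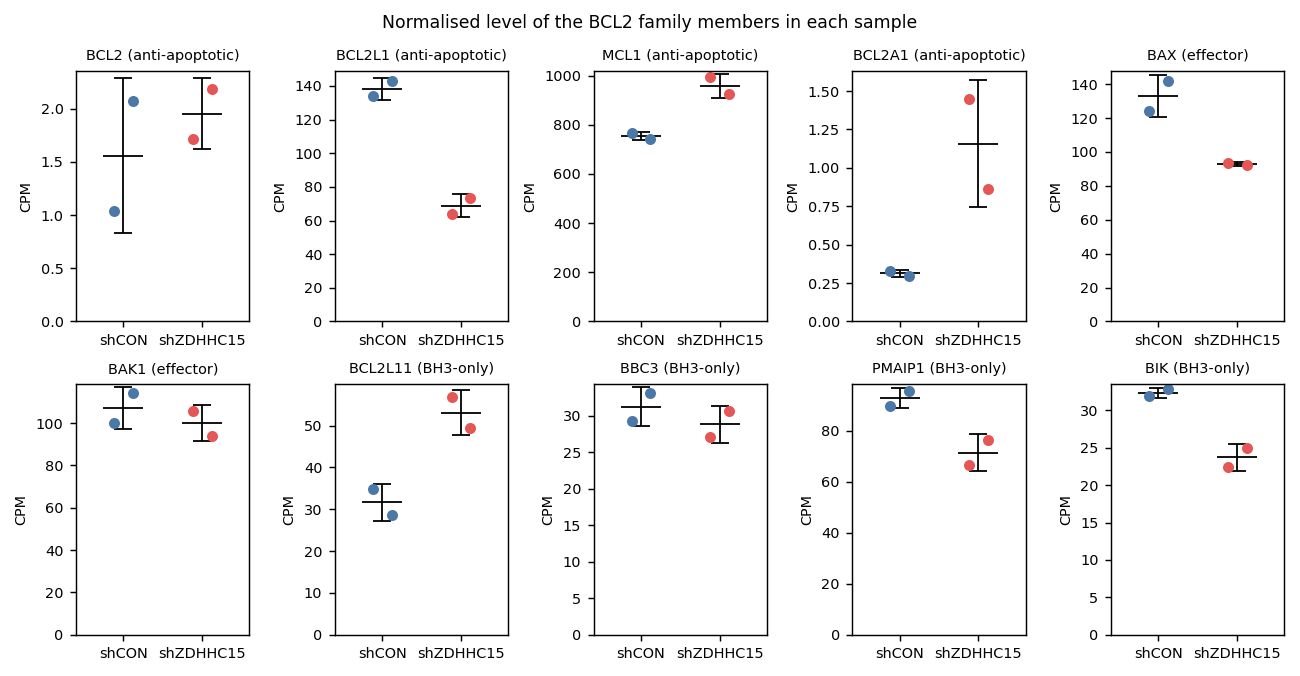
Normalised level of each of the 10 members (y axis, CPM, from 0, a separate scale in each panel) in the 2 shCON and 2 shZDHHC15 samples. Points are samples, horizontal bars are means and error bars are SD (n = 2). The groups are apart for BCL2L1, MCL1, BCL2A1, BAX, BCL2L11, PMAIP1 and BIK and overlap for BCL2, BAK1 and BBC3.

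The anti-apoptotic genes diverged. MCL1 (ENSG00000143384, chromosome 1, 150574551 to 150579738, minus strand, GRCh38) received 13970 and 12548 counts in shCON cells and 18510 and 18167 counts in shZDHHC15 cells. Both shZDHHC15 samples lay above both shCON samples. Its normalised level rose from 754 ± 15.8 to 958 ± 48.6 CPM (SD, n = 2), 1.27-fold (log2 fold change 0.35, standard error 0.0856, adjusted p = 0.00466). This is a modest change among genes of this experiment, since 47.5% of tested genes had an equal or smaller absolute log2 fold change. The call was lost without shZDHHC15 replicate 1 (log2 fold change 0.29, adjusted p = 0.104).

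BCL2L1 (ENSG00000171552, chromosome 20, 31664452 to 31723989, minus strand), which encodes BCL-XL and its shorter, pro-apoptotic splice form, went the other way. It received 2444 and 2417 counts in shCON cells and 1193 and 1448 counts in shZDHHC15 cells. Its level fell from 138 ± 6.52 to 68.8 ± 6.84 CPM (SD, n = 2), 2.01-fold (log2 fold change -1.01, standard error 0.103, adjusted p = 2.7e-06). The fall passed the test in all 8 alternative fits (-1.04 to -0.93) and whichever sample was omitted (-1.12 to -0.91). Counts per gene do not separate its splice forms. The antisense gene ABALON covers 43.0% of its exonic bases, but was itself given only 17 to 19 counts per sample. The sources used here do not state whether counting used the strand.

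BCL2A1 (ENSG00000140379, chromosome 15, 79960889 to 79971446, minus strand), an NF-κB target best known from blood cells, was near the limit of detection. It received 6 and 5 counts in shCON cells and 27 and 17 counts in shZDHHC15 cells, so that its level went from 0.312 ± 0.0231 to 1.16 ± 0.413 CPM (SD, n = 2). The log2 fold change, 1.85 with a standard error of 0.541 (adjusted p = 0.0127), was the largest of the 10 genes in absolute size, below that of their relatives BMF and BCL2L14, with a 95% interval from 0.70 to 3.01. It did not pass with the DESeq2 Wald test (adjusted p = 0.0735) or with no filter on low counts (0.0526), nor without shCON replicate 2 (0.0588) or shZDHHC15 replicate 1 (0.119). BCL2 (ENSG00000171791, chromosome 18, 63123346 to 63320128, minus strand), the founding member, was also low, with 19 and 35 counts in shCON and 32 and 43 counts in shZDHHC15 cells. The groups overlapped, and the interval of its log2 fold change, 0.35, ran from -0.44 to 1.13 (adjusted p = 0.48). Its sign turned without shCON replicate 1 (-0.11).

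The effectors differed from each other. BAX (ENSG00000087088, chromosome 19, 48954815 to 48961798, plus strand), which moves from cytosol to mitochondria on activation, received 2271 and 2394 counts in shCON cells and 1747 and 1811 in shZDHHC15 cells. Its level fell from 133 ± 12.3 to 92.9 ± 1.12 CPM (SD, n = 2), 1.43-fold (log2 fold change -0.52, standard error 0.0995, adjusted p = 7.74e-04). BAK1 (ENSG00000030110, chromosome 6, 33572547 to 33580293, minus strand), which resides at the mitochondrion, received 1827 and 1931 counts in shCON and 1976 and 1847 in shZDHHC15 cells. The groups overlapped at 107 ± 10.1 and 100.0 ± 8.51 CPM (SD, n = 2), with a log2 fold change of -0.10 (interval -0.32 to 0.12, adjusted p = 0.473). BAK1 shares a stretch of 636 bases at 98.3% identity with the pseudogene BAK1P1, which was given 16 to 35 counts per sample. Within each sample the level of BAX over that of BAK1, per kilobase, was 1.06 in each shCON sample and 0.756 and 0.838 in the shZDHHC15 samples. This ratio does not depend on the scaling of the libraries.

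The BH3-only genes split as well. BCL2L11 (ENSG00000153094, chromosome 2, 111119378 to 111168447, plus strand), which encodes BIM and is a FOXO target, was the only one of the 4 that rose. It received 636 and 483 counts in shCON cells and 1060 and 971 counts in shZDHHC15 cells, from 31.7 ± 4.41 to 53.1 ± 5.28 CPM (SD, n = 2). This is a 1.67-fold difference (log2 fold change 0.74, standard error 0.126, adjusted p = 2.74e-04) that passed with each sample left out (0.60 to 0.86). The long noncoding gene MIR4435-2HG runs antisense over 10.9% of its exonic bases, and was itself given 479 and 434 counts in shCON and 255 and 321 counts in shZDHHC15 cells, so that reads of the shared stretch cannot be assigned without strand.

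PMAIP1 (ENSG00000141682, chromosome 18, 59899948 to 59904306, plus strand), whose product NOXA targets MCL1 for degradation, received 1640 and 1613 counts in shCON cells and 1237 and 1502 in shZDHHC15 cells. It fell from 92.6 ± 4.002 to 71.4 ± 7.11 CPM (SD, n = 2), 1.30-fold (log2 fold change -0.38, standard error 0.105, adjusted p = 0.00979). BIK (ENSG00000100290, chromosome 22, 43110748 to 43129712, plus strand), a BH3-only protein of the endoplasmic reticulum, received 582 and 554 counts against 419 and 492. It fell from 32.3 ± 0.649 to 23.7 ± 1.81 CPM (SD, n = 2), 1.36-fold (log2 fold change -0.44, standard error 0.121, adjusted p = 0.00876). Both calls were lost without shZDHHC15 replicate 1, with adjusted p-values of 0.167 for PMAIP1 and 0.105 for BIK. BBC3 (ENSG00000105327, chromosome 19, 47220822 to 47232766, minus strand), which encodes the p53 target PUMA, received 536 and 561 counts in shCON and 505 and 602 in shZDHHC15 cells. Its groups overlapped (log2 fold change -0.11, interval -0.38 to 0.15, adjusted p = 0.49).

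Levels of different genes were compared as CPM per kilobase of the deposited gene length, which equals the union of a gene's GENCODE 29 exons. MCL1 led at 172 ± 3.62 in shCON and 219 ± 11.1 in shZDHHC15 cells (SD, n = 2), and by the mean over all samples it stood at rank 183 of 15817 tested genes. In shCON cells BAX (51.4 ± 4.74) and BAK1 (48.5 ± 4.55) followed and were not separable by their samples, then BCL2L1 (41.8 ± 1.97) and PMAIP1 (41.5 ± 1.79), likewise overlapping, and BIK (33.9 ± 0.681). BBC3 (9.84 ± 0.856) and BCL2L11 (4.76 ± 0.663) were lower, and BCL2A1 (0.287 ± 0.0212) and BCL2 (0.132 ± 0.062) were lowest. In shZDHHC15 cells BCL2L1 (20.8 ± 2.06) stood below PMAIP1 (31.9 ± 3.18) and BIK (24.9 ± 1.89), and BAX (35.9 ± 0.432) below BAK1 (45.2 ± 3.85). BCL2L11 (7.98 ± 0.792) overlapped with BBC3 (9.07 ± 0.786). The order of some genes depends on the length used. Per kilobase of its longest coding transcript, BAX was 98.0 ± 9.02 in shCON and 68.4 ± 0.822 in shZDHHC15 cells (SD, n = 2), above BAK1 in both groups. By that length BCL2L1 (26.4 ± 2.62) stood no longer below BIK (24.9 ± 1.89) in shZDHHC15 cells.

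The balance between roles was described within each sample. Anti-apoptotic genes made up 54.3% and 51.8% of the summed CPM per kilobase of the 10 members in the shCON samples and 61.6% and 60.1% in the shZDHHC15 samples. Effectors made up 23.5% and 25.8% and then 20.9% and 20.01%, and BH3-only genes 22.2% and 22.3% and then 17.5% and 19.9%. The groups did not overlap for any role. MCL1 made up 175 and 170 of the anti-apoptotic sums of 216 and 214 CPM per kilobase in shCON samples. In shZDHHC15 samples it made up 227 and 211 of 248 and 235. BCL2L1, the next largest part, fell from 40.4 and 43.2 to 19.3 and 22.2, so the rise of the anti-apoptotic sum rested on MCL1. The anti-apoptotic share also rose because the other sums fell. Effectors went from 93.3 and 106 to 84.1 and 78.1 CPM per kilobase, and BH3-only genes from 88.1 and 91.9 to 70.3 and 77.5. No test was made on these sums, since 2 samples against 2 cannot give a two-sided exact permutation p below 0.33. Per kilobase, MCL1 exceeded BCL2L1 by a ratio of 4.33 and 3.94 in shCON cells and 11.8 and 9.51 in shZDHHC15 cells. The ratio of MCL1 to PMAIP1 was 4.36 and 3.98 against 7.65 and 6.18, and that of MCL1 to BCL2L11 was 33.5 and 39.6 against 26.6 and 28.5. MCL1 thus stood higher against BCL2L1 and PMAIP1, and lower against BCL2L11, in both shZDHHC15 samples.

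**Figure D2:**
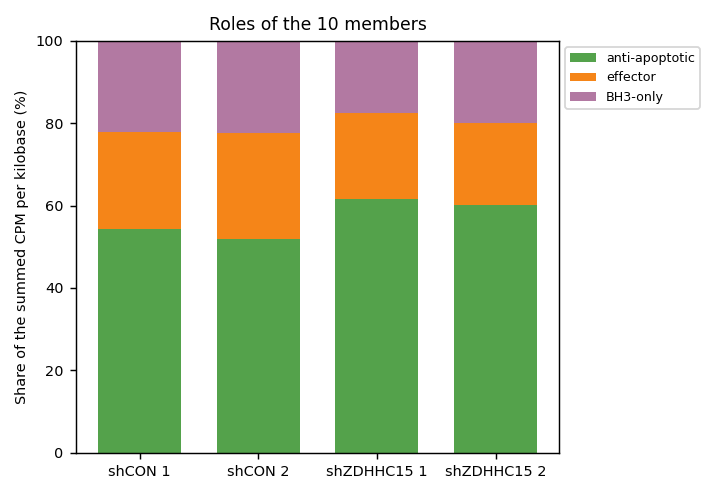
Share of the summed CPM per kilobase of the 10 members (y axis, percent) taken by anti-apoptotic, effector and BH3-only genes in each sample (x axis). The anti-apoptotic share was 54.3% and 51.8% in the shCON samples and 61.6% and 60.1% in the shZDHHC15 samples. MCL1 was the largest part of that share in every sample, and BCL2L1, the next largest, fell.

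Of 16 further genes of the BCL2 family or related to it, 14 were tested, and 3 rose, 3 fell and 8 did not pass, with a median log2 fold change of 0.02. The shares over all tested genes were 21.7% called higher and 20.3% called lower. BMF, a BH3-only gene whose product is held at the cytoskeleton until released, rose from 290 and 308 counts to 1427 and 1047 counts (log2 fold change 1.93 ± 0.161 standard error, adjusted p = 3.13e-07). BID, which is cleaved by caspase-8, rose by 0.42 on the log2 scale (adjusted p = 0.0101). BAD, which is controlled by survival kinases, fell from 718 and 862 counts to 418 and 443 counts (log2 fold change -1.01 ± 0.135 standard error, adjusted p = 3.72e-05). GPR137 overlaps 23.7% of the exonic bases of BAD on the other strand and was given 4719 counts over the 4 samples. BCL2L14 went from 2 counts in each shCON sample to 29 and 26 counts (log2 fold change 3.58, interval 2.29 to 4.87, adjusted p = 2.61e-04). It passed the filter on low counts only through its shZDHHC15 samples, so the direction of its call was partly set by that filter. BCL2L12, which shares 33.1% of its exonic bases with IRF3, fell by 0.45 and BNIP1 by 0.55 on the log2 scale (adjusted p = 0.00425 and 0.0218). The anti-apoptotic BCL2L2 (log2 fold change 0.04, adjusted p = 0.789) and the effector-like BOK (-0.25, adjusted p = 0.0895) did not pass. With the 7 anti-apoptotic, effector and BH3-only genes of this list added to the members, a choice made after seeing the data, the anti-apoptotic share was 49.3% and 46.3% in shCON and 55.4% and 54.2% in shZDHHC15 samples, and the BH3-only share 25.97% and 26.9% against 22.7% and 24.3%.

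**Figure D3:**
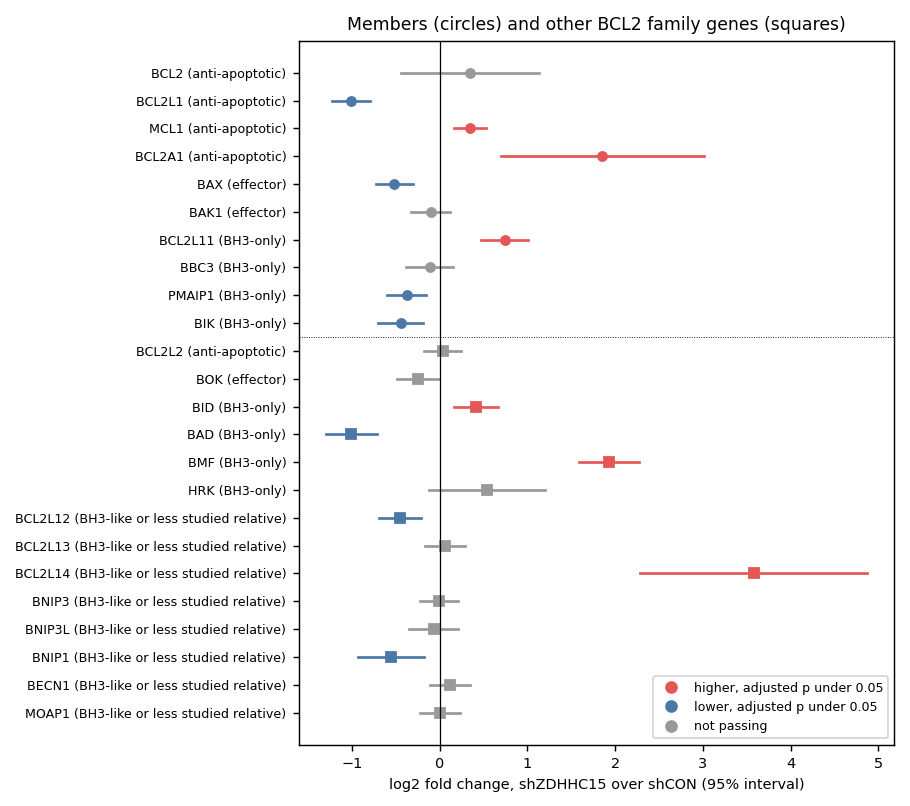
Log2 fold change of shZDHHC15 over shCON (x axis) with its 95% interval (lines) for the 10 members (circles) and the 14 tested relatives (squares), coloured by call. Anti-apoptotic and BH3-only members lie on both sides of 0, BAX lies below 0, the interval of BAK1 spans 0, and BMF and BAD lie at 1.93 and -1.01. The fitted value of BCL2L14 rests on 2 counts in each shCON sample.

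Downstream of the mitochondrion, all 20 listed genes were tested, with 6 higher, 6 lower and a median log2 fold change of -0.09. Over all tested genes, 21.7% were called higher and 20.3% lower. APAF1, the scaffold of the apoptosome, rose from 216 and 191 to 551 and 467 counts (log2 fold change 1.20, adjusted p = 1.78e-05). The large inhibitor of apoptosis BIRC6 rose from 957 and 555 to 1900 and 1649 counts (log2 fold change 1.12, adjusted p = 8.26e-05). Its shCON samples thus lay far apart. BIRC5 (survivin), a gene also tied to mitosis, fell by 0.85 on the log2 scale (adjusted p = 5.74e-06). HTRA2, a protease released from mitochondria, fell by 0.77 (adjusted p = 1.91e-04), with AUP1 and LOXL3 over parts of its exons, and the channel gene VDAC3 fell by 0.43 (adjusted p = 0.00116). CASP9 (log2 fold change -0.38, adjusted p = 0.124) and CYCS (-0.16, adjusted p = 0.171) did not pass. CASP9, CYCS, BCL2L2 and BOK lie outside the rule for named genes and were picked after their values were seen.

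A further list held 12 genes whose products control the stability of MCL1 and BH3-only proteins. Of these, 11 were tested, 3 higher and 2 lower, with a median of 0.27. Calls in both directions were also frequent over all tested genes (21.7% higher, 20.3% lower). HUWE1 (MULE), a ubiquitin ligase of MCL1, rose from 8249 and 6353 to 16943 and 15170 counts (log2 fold change 1.02, standard error 0.107, adjusted p = 3.42e-06). USP9X, a deubiquitinase that stabilises MCL1, rose from 6820 and 4623 to 11732 and 10558 counts (0.85, adjusted p = 8.79e-05), and USP13 rose by 0.54 (adjusted p = 0.00159). CDC20 fell by 1.69 and MARCH5 by 0.47 on the log2 scale (adjusted p = 2.22e-09 and 0.00188). Genes for opposing activities on MCL1 were thus both higher.

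BBC3, PMAIP1 and BAX are classical p53 targets, so 24 other p53 targets were listed. Of these, 22 were tested, 4 higher and 8 lower, with a median of -0.18. Among all tested genes, 21.7% were called higher and 20.3% lower. GADD45A fell by 1.46, DDB2 by 1.05 and PHLDA3 by 0.92 on the log2 scale (adjusted p = 5.74e-07, 2.34e-05 and 1.68e-05). FAS, SESN1 and TP53INP1 rose by 0.75, 0.82 and 0.48 (adjusted p = 0.00237, 0.0205 and 0.0195). Of 19 transcription factor genes known to act on promoters of the family, 7 were higher, 6 lower and 6 not called, with a median of 0.08. The same background shares apply here. TP73, a p53 relative, rose by 2.90 on the log2 scale from 11 counts in each shCON sample (adjusted p = 8.13e-06), and STAT3 by 0.73 (adjusted p = 1.3e-05). TP73-AS1, which overlaps 9.36% of the exonic bases of TP73 on the other strand, was given 2349 counts over the 4 samples. YAP1 fell by 2.81, ATF3 by 1.69 and ATF4, an inducer of PMAIP1 under stress, by 1.05 on the log2 scale (adjusted p = 4.36e-11, 7.18e-09 and 2.96e-07). TEAD1, the partner of YAP, did not pass (-0.24, adjusted p = 0.0972).

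**Figure D4:**
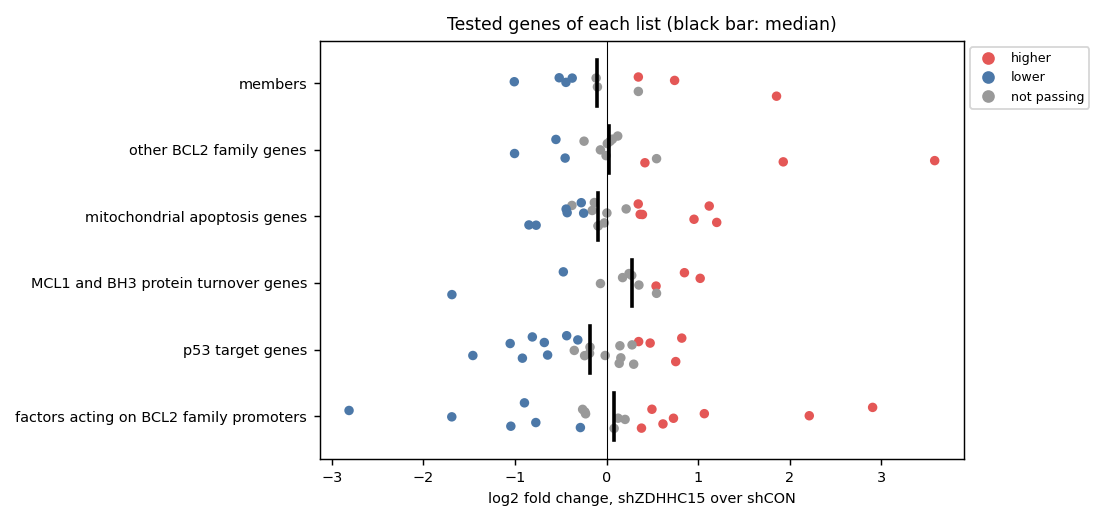
Log2 fold change of shZDHHC15 over shCON (x axis) of every tested gene in each list (rows), with the list's median as a black bar and points coloured by call. The vertical spread of points within a row has no meaning. The medians lie between -0.18 and 0.27, and each list holds genes on both sides of 0.

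The genes whose pattern was most like that of BCL2A1, the called member with the largest absolute log2 fold change, were ALDOC, SASH1 and IDH1. They were the closest of 10195 protein-coding genes by Euclidean distance between log2(CPM + 0.5) values centred on the mean of the 4 samples, at distances of 0.0831, 0.093 and 0.0967. Over 4 samples in 2 groups, such a distance mostly reads the size of the group difference, and the offset of 0.5 shrinks that of a gene as low as BCL2A1.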

How the data were processed

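RNA-seq libraries of 4 HCC1954 samples (2 shCON, 2 shZDHHC15) were made with the NEBNext Ultra kit. The authors deposited raw counts of reads per gene, not normalised, for 58735 genes. The submitters' processing notes name HISAT2, StringTie, SAMtools and hg38. The counting tool and the use of strand are not given in the sources used here. All 58735 identifiers, positions and symbols matched GENCODE 29. No column of sample values was set aside (0 columns).

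Genes were filtered with filterByExpr, scaled by TMM (factors 0.962 to 1.03) and tested across all 15817 genes with edgeR 4.0.16 (glmQLFit, glmQLFTest; R 4.3.3) and Benjamini-Hochberg adjustment at 0.05. Standard errors and 95% intervals came from the F statistic. CPM was computed from counts and TMM-scaled library sizes, and divided by the deposited gene length for levels. Overlapping genes were taken from exons, and near-identical copies from transcripts sharing at least 150 bases at 97% identity. The fit was tested on simulated data. Chi-square statistics per degree of freedom between samples of a group were 8.32 (shCON) and 6.79 (shZDHHC15), above counting noise, and all samples were kept.

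Fits were repeated with other scalings (DESeq2 size factors, upper quartile, or library size with no factor), with the DESeq2 1.42.0 Wald test, without a filter or with a minimum of 10 counts per sample, with edgeR's legacy dispersion, with a term for the replicate number, and with 1 sample omitted at a time. Named genes were the members, ZDHHC15, YAP1, TEAD1 and, in each list, the 3 called genes with the smallest adjusted p in each direction, with exceptions stated, plus the 3 genes nearest in pattern to the most changed member. Members and lists were chosen with earlier results of these data known. A few genes that this rule would name are not reported here.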

Additional observations from a re-analysis of the deposited data

How the results depend on the processing

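With 1 sample omitted, log2 fold changes lay between 0.29 and 0.39 for MCL1, 1.45 and 2.18 for BCL2A1, -0.49 and -0.28 for PMAIP1, -0.53 and -0.37 for BIK, and -0.11 and 0.90 for BCL2, whose sign turned to -0.11 without shCON replicate 1. Members called numbered 1 to 3 higher and 2 to 4 lower. The lowest counts came without shZDHHC15 replicate 1, where 28.5% of all genes were called against 42.0%, and the lone sample of a group was assumed to vary like the other group. Mitochondrial apoptosis genes called then numbered 3 to 6 higher and 3 to 5 lower (median -0.156 to -0.0716), p53 targets 1 to 5 higher, and the median of other BCL2 family genes was -0.0052 to 0.0959.

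BCL2A1 did not pass by the DESeq2 Wald test (1.87) or without a filter (1.84), and was not tested at a minimum of 10 counts. Without a filter, over 30168 genes, 2282 genes were called higher, 3 mitochondrial genes lower and 1 p53 target higher, and the median of all genes was 0.0599. By library size alone the medians were 0.0896 (all genes), 0.0971 (other BCL2 family), -0.0178 (mitochondrial) and -0.109 (p53 targets), and by upper quartile -0.0155 (all genes). The sign of no member turned under any scaling. Per longest coding transcript the shares were 49.5% and 57.4% anti-apoptotic (shCON, shZDHHC15), 29.5% and 24.04% effector, and 21.1% BH3-only in shCON. In the wider family, added after seeing the data, they were 47.8% and 54.8% anti-apoptotic, 21.7% effector in shZDHHC15, and 26.4% and 23.5% BH3-only.

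The same-numbered samples share only a number: their deviations correlated at 0.0611, and a fit with the replicate block called the same number of members, 7, and 7201 genes in all, and changed no member's call. Having 2 samples per group, low counts for BCL2 and BCL2A1, and gene-level counts without isoforms or stated strand limits the precision.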
